A study of Mus musculus with 44 samples.

Results

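The mRNA of the skeletal stem and progenitor populations was compared with that of the populations placed downstream of them in 16 of the 44 libraries of the series. These are the input libraries of wild-type mice, meaning RNA sequenced without enrichment for the modification m6A. The 6 stem and progenitor libraries are 2 each of the skeletal stem cell (SSC), the pre-bone, cartilage and stromal progenitor (pBCSP) and the bone, cartilage and stromal progenitor (BCSP). The 10 downstream libraries are 2 each of the pro-chondrogenic progenitor (PCP), the Thy subpopulation (THY), the B-cell lymphocyte stromal progenitor (BLSP), the 6C3 subpopulation (6C3) and the hepatic leukemia factor expressing cell (HEC). Libraries were assigned to the classes by their labels. The ratio of enriched RNA to input was not used.

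All 16 libraries came from long bones of untreated C57Bl6 mice labelled wild type at postnatal day 3. The study's wild-type controls of a Mettl3 deletion carry Mettl3 fl/fl alleles without Cre, and whether the 8 sorted populations came from such mice is not given in the sources used here. According to the study, mice of this age came from several litters regardless of sex, and sorted cells were shared between the input and the enriched library. Every population was sorted as CD45- Ter119- Tie2- AlphaV+, which removes blood, red cell and endothelial surface types. The 3 stem and progenitor gates were negative for both Thy1 and 6C3 (SSC: CD105- CD200+, pBCSP: CD105- CD200-, BCSP: CD105+). PCP, THY and BLSP were Thy1+ (PCP: CD105+ CD200+, THY: CD105+ CD200-, BLSP: CD105-), while 6C3 (CD105+) and HEC (CD105-) were 6C3+ and Thy1-. The contrast is therefore also one of cells without and with Thy1 or 6C3 on their surface, so the mRNA of Thy1 and of Enpep, which encodes the 6C3 antigen, is no finding between the classes.

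At this age the ends of long bones hold growth plate cartilage, and the skeletal stem cell of this surface scheme is defined by its ability to give rise to cartilage, bone and stroma. Growth plate chondrocytes build a matrix of type II, IX and XI collagen and of aggrecan carrying chondroitin sulfate, under the transcription factors Sox9, Sox5 and Sox6. As they mature they secrete Indian hedgehog and then type X collagen. Fibrous stroma instead lays down type I, III and V collagen, and marrow stroma produces the factors that hold blood cells.

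Epyc, Ucma, Chst11 and Id2 were taken as markers of the stem and progenitor class, and their promoters are shown because these genes name the class in the results below. Epyc encodes the small cartilage proteoglycan epiphycan, Ucma a matrix protein of early chondrocytes, Chst11 the enzyme that sulfates chondroitin at the 4-O position, and Id2 an inhibitor of basic helix-loop-helix factors that BMP signals induce. The windows run from 250 bases before the RefSeq transcription start up to it (GRCm38.p6), 5′ to 3′ on the strand of the gene. For Id2 only the distal 89 bases are printed, since an Id2 exon in GENCODE vM21 takes the rest, and for Epyc the first of 2 RefSeq starts is used. Capitals mark the SOX core (ACAAAG or ACAATG on either strand) and the GC-rich Smad box (GGCGCC, which reads the same on both strands).
Epyc (chr10:97643818-97644067, + strand): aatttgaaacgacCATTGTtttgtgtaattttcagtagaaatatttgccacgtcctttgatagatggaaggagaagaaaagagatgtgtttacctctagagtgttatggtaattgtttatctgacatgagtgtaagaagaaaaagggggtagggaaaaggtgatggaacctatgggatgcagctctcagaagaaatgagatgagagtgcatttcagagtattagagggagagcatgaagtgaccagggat
Ucma (chr2:4975872-4976121, + strand): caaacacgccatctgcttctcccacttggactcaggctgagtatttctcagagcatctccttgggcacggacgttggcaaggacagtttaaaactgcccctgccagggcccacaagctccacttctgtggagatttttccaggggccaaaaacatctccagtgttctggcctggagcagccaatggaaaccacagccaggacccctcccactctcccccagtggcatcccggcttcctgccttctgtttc
Chst11 (chr10:82985247-82985496, + strand): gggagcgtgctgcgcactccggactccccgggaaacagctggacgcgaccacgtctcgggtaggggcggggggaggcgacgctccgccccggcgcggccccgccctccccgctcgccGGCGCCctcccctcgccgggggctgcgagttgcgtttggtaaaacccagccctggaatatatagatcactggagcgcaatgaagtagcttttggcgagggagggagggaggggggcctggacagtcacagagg
Id2 (chr12:25096254-25096342, - strand): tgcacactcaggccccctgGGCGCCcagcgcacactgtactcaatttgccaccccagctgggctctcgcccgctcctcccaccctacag
The Epyc window holds 1 SOX core, 237 bases before the start. The Chst11 and Id2 windows hold 1 GC-rich Smad box each, 133 and 231 bases before the start, and the Ucma window holds neither motif. Among the 12655 tested genes with a window of 250 bases in RefSeq, 17.8% hold a SOX core and 15.8% a GC-rich Smad box, so both are common by letters alone.

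All 4 markers were higher in every stem and progenitor library than in any downstream library, beside 8.15% of all genes tested. They were chosen as markers of this class with earlier results of these data known. Their separation and p-values therefore describe the choice and are no independent finding. Values are CPM, the counts of a gene over the TMM-scaled total of its library, and the log2 difference is stem and progenitor minus downstream, fitted over the 8 populations with the 2 libraries of each summed, so that 3 populations stand against 5. Epyc (ENSMUSG00000019936.10, chr10:97644068-97682454, + strand, GRCm38 as all positions here) lay at 384 to 552 CPM (median 426) in the 6 stem and progenitor libraries and 2.41 to 11.7 CPM (median 5.27) in the 10 downstream libraries (log2 difference 6.26 ± 0.26 (SE), adjusted p = 9.8e-06). The means of its 3 stem and progenitor populations ran from 389 CPM in SSC to 506 in BCSP, and no downstream population passed 8.28 CPM, the mean of THY. Ucma (ENSMUSG00000026668.10, chr2:4976122-4985748, + strand) lay at 1089.9 to 2375 CPM (median 2106) against 58.6 to 419 CPM (median 328) (log2 difference 2.8 ± 0.47 (SE), adjusted p = 0.002), and pBCSP, at 1118 CPM, stood below SSC and BCSP. Chst11 (ENSMUSG00000034612.7, chr10:82985498-83195900, + strand) lay at 89.7 to 187 CPM (median 117) against 7.597 to 60.2 CPM (median 16.6) (log2 difference 2.33 ± 0.53 (SE), adjusted p = 0.0085). For this gene HEC, with a mean of 55.7 CPM, and 6C3, with 33.1, stood nearer to the progenitors than the Thy1+ populations did, which ran from 9.94 to 14.5 CPM. Id2 (ENSMUSG00000020644.9, chr12:25093799-25097140, - strand) lay at 355 to 546 CPM (median 404) against 63.5 to 156 CPM (median 91.3) (log2 difference 2.19 ± 0.2 (SE), adjusted p = 0.00015), with the HEC mean of 131 CPM the highest downstream.

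**Figure D1:**
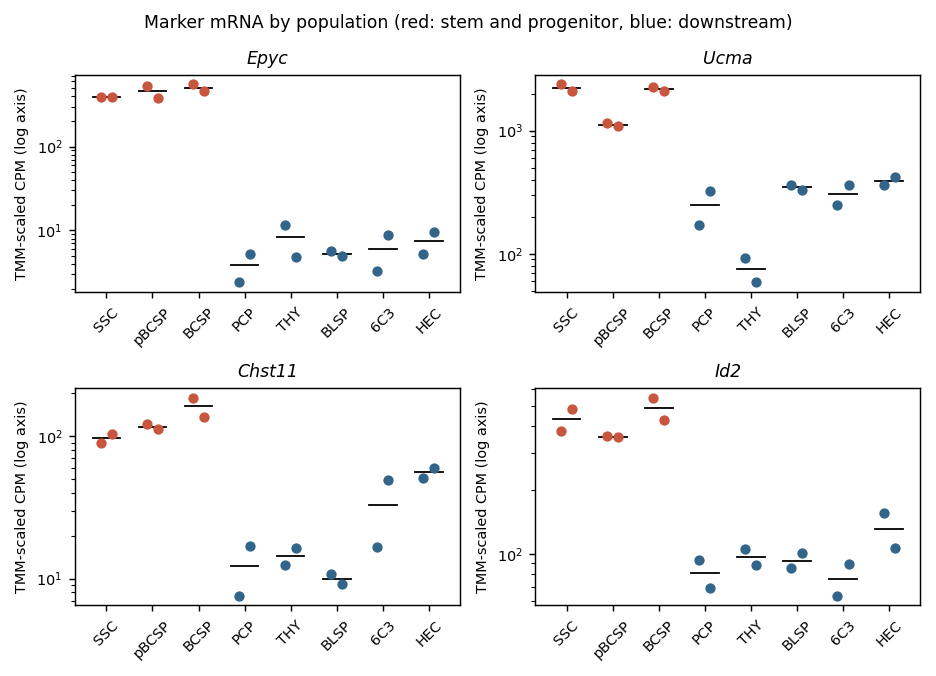
TMM-scaled CPM (log axis) of Epyc, Ucma, Chst11 and Id2 in each of the 16 libraries by population; points are the 2 libraries of a population and bars their mean. In each panel all red points (stem and progenitor) lie above all blue points (downstream).

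The libraries held 29766972 to 32518936 counts in the stem and progenitor class and 19795666 to 44046651 downstream. The mRNA of the sort antigens followed the gates. Mean Thy1 ran from 21.6 to 29.2 CPM in the 3 Thy1+ populations and did not pass 0.28 CPM in any other, and mean Enpep was 42.9 CPM in 6C3 and 54.6 in HEC and at most 6.78 elsewhere. Eng, which encodes CD105, averaged 97.3 to 128 CPM in the 4 CD105+ populations and 21.8 to 48.7 CPM in the 4 CD105- ones. Cd200 averaged 221 CPM in SSC and 23.7 in pBCSP, 99.3 in PCP and 8.75 in THY, as those gates ask. Itgav, the AlphaV gene, was expressed in all populations and lower in the stem and progenitor class (log2 difference -1.15 ± 0.18 (SE), adjusted p = 0.0015). Ptprc, which encodes CD45, had no count in the 6 stem and progenitor libraries and at most 0.837 CPM downstream. Of the 7 sort-antigen genes, Itgav, Thy1 and Ptprc were called lower and none higher.

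Across 19540 genes tested, 3249 (16.6%) were higher and 3751 (19.2%) lower in the stem and progenitor populations at an adjusted p under 0.05. Counts of called genes in the lists below stand beside these shares. All 6 libraries lay above all 10 for 8.15% of the genes tested and below them for 8.84%. The median log2 difference over all genes was -0.08. On the first principal component, which held 40.46% of the variance, the 6 stem and progenitor libraries lay between -120.9 and -91.8 and the 10 downstream libraries between 30.2 and 90.4. The second, with 11.66%, set 6C3 and HEC apart from PCP, THY and BLSP. Between libraries of different classes the correlation of log2 CPM across genes, which are not independent replicates, was 0.871 to 0.920, against 0.927 to 0.958 between different populations of the stem and progenitor class and 0.921 to 0.973 between downstream ones. In sorted bulk RNA, fewer cells of a type and less RNA per cell cannot be told apart, here or in any result below.

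**Figure D2:**
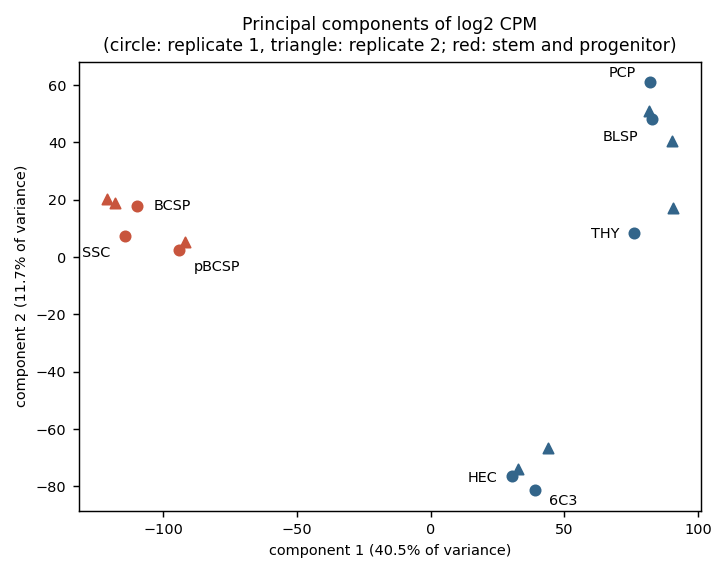
Principal components of log2 CPM over the 16 libraries, component 1 (40.46% of variance) across and component 2 (11.66%) up, in arbitrary units; circles are replicate 1 and triangles replicate 2. The classes separate along component 1 and the 6C3+ populations from the Thy1+ ones along component 2.

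Some values of whole libraries also differed between the classes. Table entries named 1-Mar or 2-Mar, which were left out, held 0.0247% to 0.0596% of the counts in stem and progenitor libraries and 0.186% to 0.390% downstream, without overlap. Genes with at least 1 count numbered 19385 to 20747 against 20588 to 26442. The share of counts in protein-coding genes was 93.9% to 95.2% against 95.2% to 96.9%. Longer genes were more often lower in the stem and progenitor class: of the fifth of tested genes with the shortest summed exons 18.2% were called higher and 10.8% lower, and of the fifth with the longest 12.5% and 28.8%. The labels give 1 batch for all libraries, so a difference in preparation between the classes cannot be told apart from the class, and the part of these values in the results below was not tested.

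Cartilage genes were among the largest increases. Among the 12 leading genes, chosen by size among called genes without overlap, Matn1, which encodes the cartilage matrix protein matrilin-1 (ENSMUSG00000040533.7, chr4:130944385-130955475, + strand), lay at 929 to 1897 CPM (median 1322) in stem and progenitor libraries and 1.22 to 23.1 CPM (median 8.18) downstream (log2 difference 7.25 ± 0.53 (SE), adjusted p = 8.4e-05). Its downstream means ran from 3.43 CPM in HEC to 18.98 in PCP, while the lowest progenitor mean was 1127 CPM, in pBCSP. Ihh, the Indian hedgehog ligand (ENSMUSG00000006538.12, chr1:74945315-74951672, - strand), lay at 32.8 to 206 CPM (median 60.7) against 0.355 to 2.79 CPM (median 0.899) (log2 difference 6.33 ± 0.66 (SE), adjusted p = 0.00025). Within the progenitors its mean was 183 CPM in BCSP, 60.7 in SSC and 36.9 in pBCSP.

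Chil1, a secreted chitinase-like glycoprotein of chondrocytes and other cells (ENSMUSG00000064246.10, chr1:134182176-134190181, + strand), lay at 199.8 to 3057 CPM (median 417) against 15.1 to 72.8 CPM (median 43.1) (log2 difference 4.59 ± 0.63 (SE), adjusted p = 0.00078). Its replicates differed widely, with 2096 and 429.8 CPM in the 2 SSC libraries and 3057 and 404 in the 2 BCSP libraries. Foxa2, a transcription factor of maturing chondrocytes (ENSMUSG00000037025.11, chr2:148042877-148046969, - strand), lay at 6.33 to 35.03 CPM (median 17.3) against 0 to 2.01 CPM (median 0.584) (log2 difference 4.55 ± 0.79 (SE), adjusted p = 0.0023), again with pBCSP the lowest progenitor at 6.66 CPM. Timp4, an inhibitor of matrix metalloproteinases (ENSMUSG00000030317.8, chr6:115241892-115252205, - strand), lay at 22.5 to 164 CPM (median 99.6) against 0.0915 to 7.85 CPM (median 1.01) (log2 difference 5.58 ± 0.69 (SE), adjusted p = 0.00049). A2m, the protease inhibitor alpha-2-macroglobulin (ENSMUSG00000030111.9, chr6:121635376-121679227, + strand), lay at 30.6 to 74.7 CPM (median 47.04) against 0 to 7.04 CPM (median 1.25) (log2 difference 4.92 ± 0.66 (SE), adjusted p = 0.00071). Both inhibitors had their highest downstream library in PCP.

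Fxyd2, a regulatory subunit of the sodium pump (ENSMUSG00000059412.7, chr9:45399669-45410278, + strand), lay at 13.7 to 164 CPM (median 33.1) against 1.13 to 3.87 CPM (median 1.94) (log2 difference 4.99 ± 0.56 (SE), adjusted p = 0.00033), with 135 CPM in BCSP and at most 33.1 in the other progenitors. Cd164l2 (ENSMUSG00000028865.14, chr4:133212131-133224555, + strand), Rlbp1, which encodes a retinaldehyde-binding protein (ENSMUSG00000039194.16, chr7:79374870-79387048, - strand), and Bpifb5 (ENSMUSG00000038572.7, chr2:154223742-154240902, + strand) had log2 differences of 5.02 ± 0.61, 4.43 ± 0.33 and 4.33 ± 0.6 (SE). These genes had population means of 8.78 to 32.9 CPM in the progenitors, and none of their 10 downstream libraries passed 1.89 CPM. Rn7sk, the small nuclear RNA 7SK (ENSMUSG00000065037.1, chr9:78175303-78175633, - strand), lay at 27.5 to 104 CPM (median 56.5) against 0.306 to 1.32 CPM (median 1.12) (log2 difference 5.99 ± 0.29 (SE), adjusted p = 1.9e-05). It encodes no protein, and it moved with the lower share of protein-coding counts given above.

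**Figure D3:**
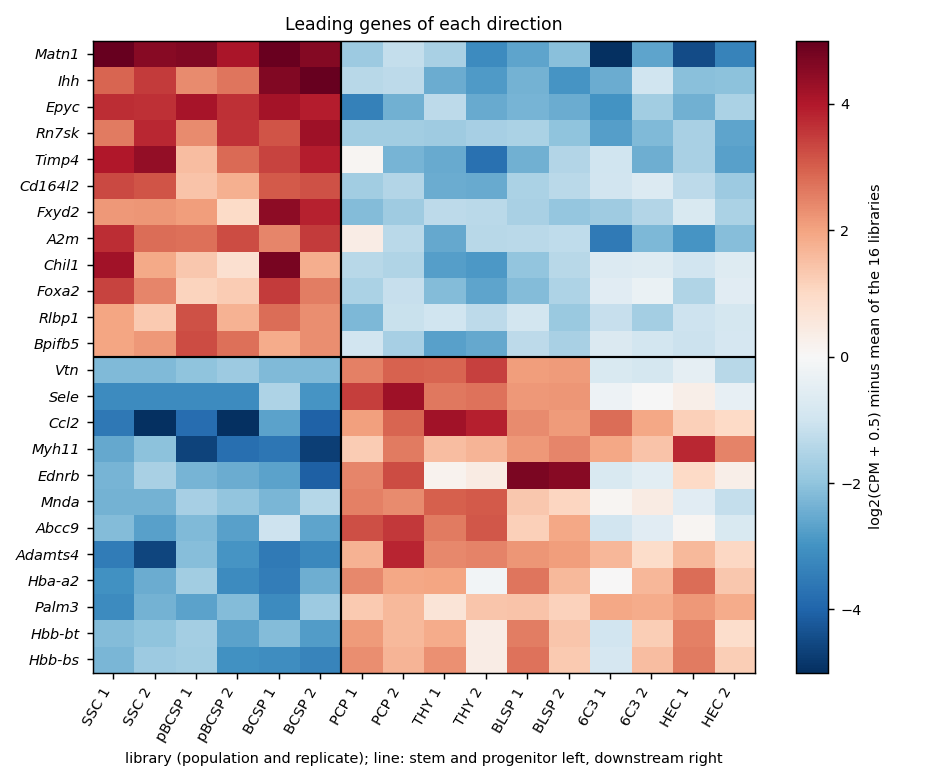
Expression of the 12 genes with the largest increase (upper rows) and the 12 with the largest decrease (lower rows) in each library, as log2(CPM + 0.5) minus the gene's mean over the 16 libraries. Stem and progenitor libraries are left of the vertical line; every gene was chosen for having no overlap between the classes.

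Genes of the cartilage matrix were higher as a group. Of 26 tested, 18 rose and 0 fell, beside 16.6% and 19.2% of all genes, all 26 had a positive difference, and their median was 1.75 against -0.08 over all genes. The 18 include Epyc and Ucma, which were chosen as markers of the class. The summed level of the list was 143540.0 to 179415 CPM in the stem and progenitor libraries and 14851 to 124351 CPM downstream. Cytl1, a small cytokine-like protein of cartilage (ENSMUSG00000062329.4, chr5:37735519-37739820, + strand), lay at 2536 to 4371 CPM (median 3438) against 117 to 826 CPM (median 155) (log2 difference 3.6 ± 0.57 (SE), adjusted p = 0.0015). Snorc, a transmembrane proteoglycan of chondrocytes listed in the table as 3110079O15Rik, lay at 367 to 1509 CPM (median 766) against 9.02 to 132 CPM (median 42.3) (log2 difference 3.69 ± 0.7 (SE), adjusted p = 0.0035). Among the collagens, Col9a2 and Col9a3 differed by 3.2 and 3.11, Col11a1 and Col11a2 by 1.35 and 1.69, and Acan, the aggrecan core protein, by 1.32 on the log2 scale.

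The most abundant cartilage gene did not pass. Col2a1, the type II collagen chain, lay at 70652 to 85017 CPM (median 73639) in the progenitors but spread from 4189 to 84391 CPM downstream (log2 difference 1.27 ± 0.78 (SE), adjusted p = 0.229). This spread followed the surface phenotype: HEC averaged 74552 CPM, within the range of the progenitor means, and 6C3 53407, while PCP, BLSP and THY averaged 14878, 11813 and 4369. Fmod, which encodes fibromodulin, overlapped likewise (log2 difference 0.41 ± 0.32 (SE), adjusted p = 0.351). Over the whole list, the median member stood at -3.4 in THY, -2.71 in PCP, -2.53 in BLSP, -1.25 in 6C3 and -0.87 in HEC relative to the progenitor mean on the log2 scale. The difference between the Thy1+ and the 6C3+ populations was not tested. Matn1 did not show this order, with lower means in 6C3 and HEC than in the Thy1+ populations, and the Epyc means of 6C3 and HEC lay between those of PCP and THY.

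Fewer transcription regulators of chondrocytes passed the test. Of 12, 5 rose (41.7%, beside 16.6% of all genes) and 0 fell (median 0.94). Besides Foxa2, these were Wwp2, a ubiquitin ligase that works with Sox9 (log2 difference 1.23 ± 0.35 (SE), adjusted p = 0.021), Sox6 (log2 difference 1.01 ± 0.28 (SE), adjusted p = 0.019), Foxc1 (log2 difference 1.0 ± 0.29 (SE), adjusted p = 0.024) and Zbtb20 (log2 difference 0.88). Sox9 itself lay at 4635 to 6659 CPM (median 5540.2) against 1489 to 6228 CPM (median 2232) and did not pass (log2 difference 0.78 ± 0.45 (SE), adjusted p = 0.199). HEC averaged 5947 CPM of Sox9, between the progenitor means, 6C3 4738, just below the lowest of them, and the Thy1+ populations 1607 to 2098. Sox5 was likewise higher in HEC and 6C3 than in the Thy1+ populations and did not pass (log2 difference 1.0 ± 0.47 (SE), adjusted p = 0.12). The calls of this list were sensitive to single populations: 1 gene rose without SSC, 2 without BCSP, and 3 without pBCSP, THY or either replicate.

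Genes of the 2 ends of the growth plate were then examined. Of 7 genes of the resting zone, where slowly dividing stem-like chondrocytes lie, 3 rose (42.9%, beside 16.6% of all genes) and 0 fell. The 3 were Ucma, Sfrp5, a secreted Wnt inhibitor, and Clu, which encodes clusterin. Ucma was chosen as a marker of the class, so its rise is no independent finding. Sfrp5 lay at 69.4 to 236 CPM (median 112) against 2.61 to 47.9 CPM (median 5.47) (log2 difference 3.36 ± 0.8 (SE), adjusted p = 0.01), and only BLSP among the downstream populations averaged more than 11.7 CPM, at 43.96. Clu lay at 415 to 918 CPM (median 545) against 93.4 to 369.8 CPM (median 162) (log2 difference 1.75 ± 0.42 (SE), adjusted p = 0.01), with an adjusted p of 0.0544 without SSC. Wif1, another Wnt inhibitor, was highest in 6C3 (3615 CPM) and HEC (3242 CPM) and did not pass (log2 difference -0.32 ± 0.61 (SE), adjusted p = 0.718), nor did the resting zone gene Gas1 (log2 difference -0.56 ± 0.43 (SE), adjusted p = 0.34). Pthlh, the ligand that holds chondrocytes immature, differed by 0.56 and did not pass.

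Of 10 genes of hypertrophic chondrocytes, 4 rose (40.0%, beside 16.6% of all genes) and 0 fell (median 1.12). These varied widely among the progenitors themselves. Col10a1, type X collagen, averaged 882 CPM in BCSP, 158 in SSC and 1.603 in pBCSP, against 11.4 in PCP and at most 1.397 in the other downstream populations (log2 difference 6.94 ± 1.68 (SE), adjusted p = 0.011). Its classes overlap, since pBCSP lay below PCP. Panx3, a channel protein of maturing chondrocytes and osteoblasts, ran from 76.5 CPM in pBCSP to 437 in BCSP and reached 42.8 in PCP (log2 difference 4.19 ± 1.02 (SE), adjusted p = 0.011). Pth1r, the receptor of the Pthlh ligand, showed the same order within the progenitors (log2 difference 1.83 ± 0.57 (SE), adjusted p = 0.032). Spp1, which encodes osteopontin, and Ibsp, bone sialoprotein, were about as high in PCP (3899 and 1941 CPM) as in BCSP (3527 and 2421 CPM) and did not pass (log2 difference 0.86 ± 0.75 (SE), adjusted p = 0.4 and log2 difference 1.27 ± 1.36 (SE), adjusted p = 0.497). Mmp13 had a negative difference and did not pass (log2 difference -3.06). The summed level of the list was 765 to 11073 CPM in the progenitors and 488 to 14193 CPM downstream. Without BCSP 2 genes of the list rose and Col10a1 had an adjusted p of 0.051. With population as a random block in limma voom Col10a1 had an adjusted p of 0.0797 and 3 genes rose. In both fits on 16 libraries with 1 mean per population, 8 genes rose and 1 fell. In addition, Pth1r lost its call without any one of the populations except pBCSP and PCP (adjusted p 0.0565 to 0.203).

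Chondroitin sulfate chains are built on a xylose linker, extended by synthases and sulfated with a donor that Papss2 makes. Of 23 genes of this pathway, 8 rose (34.8%) and 4 fell (17.4%), beside 16.6% and 19.2% of all genes (median 0.39). The 8 include Chst11, which was chosen as a marker of the class. Xylt1, which adds the xylose, lay at 45.9 to 112 CPM (median 71.2) against 10.04 to 40.97 CPM (median 17.8) (log2 difference 1.85 ± 0.35 (SE), adjusted p = 0.0033), and Csgalnact1, which starts the chain, at 115 to 246 CPM (median 167) against 23.2 to 70.9 CPM (median 34.6) (log2 difference 2.04 ± 0.32 (SE), adjusted p = 0.0014). Papss2 lay at 378 to 533 CPM (median 428) against 27.5 to 168 CPM (median 55.99) (log2 difference 2.45 ± 0.47 (SE), adjusted p = 0.0037). Chst12, another sulfotransferase of the 4-O position, rose as well (log2 difference 1.48). The genes that fell were the sulfotransferase Chst7 (log2 difference -1.47), the synthase Chsy3 (log2 difference -1.4), the polymerizing factor Chpf (log2 difference -1.17) and Xylt2 (log2 difference -0.6). The relatives Xylt1 and Xylt2 thus passed in opposite directions. Ugdh, which makes the glucuronate donor, was high in all populations and did not pass (log2 difference 0.35 ± 0.27 (SE), adjusted p = 0.337), and neither did the xylose kinase Fam20b (log2 difference 0.75 ± 0.32 (SE), adjusted p = 0.093). Without SSC, BCSP, THY or 6C3 the number of genes that fell was 2.

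BMP ligands act through receptors and Smads on the Id genes. Of 26 genes of the Id and BMP list, 6 rose and 5 fell (median 0.02). The 6 include Id2, which was chosen as a marker of the class. The share that fell was that of all genes tested (19.2%), and the share that rose was 23.1% beside 16.6%. Among ligands, Bmp7 lay at 54.4 to 132 CPM (median 81.6) against 8.69 to 30.5 CPM (median 22.6) (log2 difference 2.14 ± 0.38 (SE), adjusted p = 0.0024), while Bmp2 did not pass (log2 difference -0.02 ± 0.35 (SE), adjusted p = 0.974). Among the intracellular mediators Smad9 was higher (log2 difference 1.86 ± 0.43 (SE), adjusted p = 0.0086), and Smad1 and Smad5 were lower (log2 differences -1.0 and -0.65). Among targets, Id1 lay at 256 to 351 CPM (median 274) against 26.1 to 116 CPM (median 68.2) (log2 difference 2.08 ± 0.21 (SE), adjusted p = 0.00025), close in size to Id2, whereas Id3 did not pass, with 449.9 CPM in PCP beside 489.6 to 529 in the progenitors (log2 difference 0.81 ± 0.3 (SE), adjusted p = 0.062). The extracellular inhibitor Nog was higher (log2 difference 1.24) and Chrd lower (log2 difference -1.34). Without SSC, pBCSP or replicate 2, 3 genes fell.

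Hedgehog ligand binds Ptch1, which releases Smo and so activates the Gli factors. Of 13 genes, 4 rose (30.8%, beside 16.6% of all genes) and 0 fell (median 0.33). The 4 were the ligand Ihh, the receptor and target Ptch1, the coreceptor Boc and the transcription factor Gli2. Ptch1 lay at 35.1 to 78.9 CPM (median 43.2) against 10.3 to 26.1 CPM (median 19.8) (log2 difference 1.4 ± 0.27 (SE), adjusted p = 0.0039) and Gli2 at 39.01 to 52.5 CPM (median 44.3) against 7.67 to 25.6 CPM (median 16.8) (log2 difference 1.39 ± 0.19 (SE), adjusted p = 0.00072), neither with overlap, and Boc overlapped (log2 difference 0.93 ± 0.3 (SE), adjusted p = 0.038). The call of Boc was lost without SSC, pBCSP, PCP, THY, BLSP or either replicate (adjusted p 0.0614 to 0.15). The other direct target on the list, Gli1, differed by 0.33 and did not pass, as did the inhibitor Hhip (log2 difference -0.14 ± 0.53 (SE), adjusted p = 0.861).

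Wnt signaling held 8 genes that rose (28.6%) and 7 that fell (25.0%) of 28 (median 0.06), beside 16.6% and 19.2% of all genes. Among the secreted inhibitors, Sfrp5 and Frzb were higher (log2 difference 2.44 ± 0.6 (SE), adjusted p = 0.012 for Frzb), with Frzb at only 74.6 CPM in pBCSP, and Dkk3 was lower (log2 difference -1.99). The nuclear factor Lef1 and Ctnnb1, which encodes beta-catenin, were higher (log2 differences 1.81 and 1.0), and the coreceptor Lrp5 was lower (log2 difference -1.85). The ligand Wnt10b lay at 1.08 to 4.43 CPM (median 1.64) against 4.61 to 22.7 CPM (median 13.9) (log2 difference -2.73 ± 0.53 (SE), adjusted p = 0.0039), and the receptor Lgr5 at 2.28 to 6.46 CPM (median 3.03) against 6.94 to 29.8 CPM (median 20.8) (log2 difference -2.23 ± 0.45 (SE), adjusted p = 0.0047). Lgr5 was highest in the 3 Thy1+ populations, with means from 22.6 to 25.9 CPM. The receptor Fzd9 did not pass (log2 difference 0.32 ± 0.55 (SE), adjusted p = 0.684). Without SSC 5 genes rose and 4 fell, without BCSP 4 rose and 4 fell, and without PCP or BLSP 4 fell. Frzb had an adjusted p of 0.0547 without SSC.

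**Figure D4:**
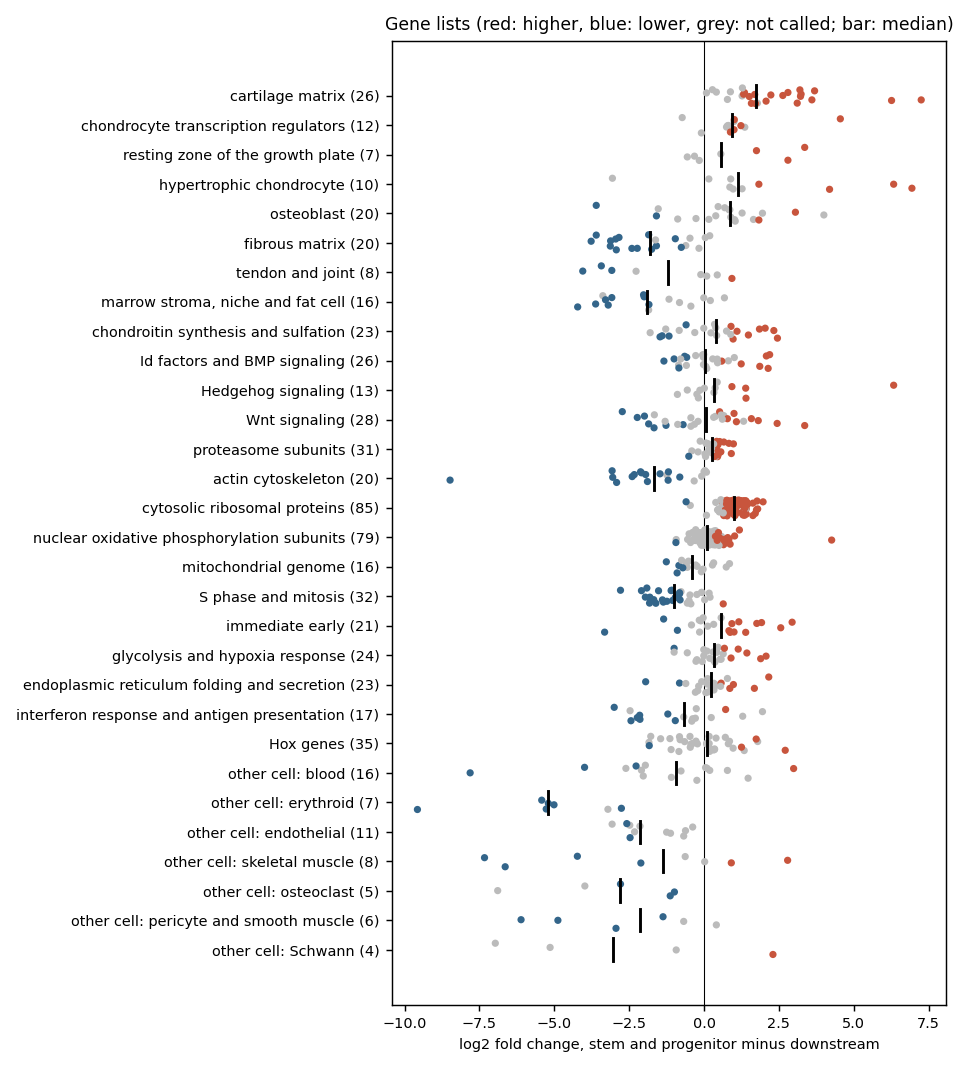
Fitted log2 difference (stem and progenitor minus downstream) of every tested member of each gene list, with the number tested in brackets; red members were called higher, blue lower and grey neither, and the black bar is the list's median. Cartilage matrix and ribosomal protein genes lie to the right and fibrous matrix, actin, marrow stroma and mitosis genes to the left.

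Among the 12 leading genes that were lower in the progenitors, Ccl2, a chemokine that attracts monocytes (ENSMUSG00000035385.5, chr11:82035571-82037453, + strand), lay at 1.76 to 12.7 CPM (median 5.16) in stem and progenitor libraries and 169 to 1559 CPM (median 399.5) downstream (log2 difference -6.66 ± 0.79 (SE), adjusted p = 0.00042), with a THY mean of 1416 CPM. Adamts4, an aggrecan-degrading protease (ENSMUSG00000006403.13, chr1:171250421-171260637, + strand), lay at 0.951 to 7.54 CPM (median 2.98) against 66.8 to 498 CPM (median 134) (log2 difference -5.53 ± 0.61 (SE), adjusted p = 0.00032). Palm3, a membrane-bound paralemmin (ENSMUSG00000047986.12, chr8:84021471-84030295, + strand), lay at 0 to 0.751 CPM (median 0.274) against 6.41 to 19.6 CPM (median 12.3) (log2 difference -5.4 ± 0.4 (SE), adjusted p = 8.4e-05) with means of 8.73 to 17.6 CPM in the 5 downstream populations.

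Several leading genes had their highest means in the Thy1+ populations. Vtn, which encodes the adhesive glycoprotein vitronectin (ENSMUSG00000017344.4, chr11:78499091-78502324, + strand), averaged 9.33 to 20.3 CPM in PCP, THY and BLSP and 0.781 to 0.791 in HEC and 6C3, against 0 to 0.155 CPM (median 0) in the progenitors (log2 difference -7.86 ± 1.7 (SE), adjusted p = 0.0066). Sele, the endothelial adhesion molecule E-selectin (ENSMUSG00000026582.6, chr1:164048234-164057677, + strand), averaged 19.7 to 66.3 CPM in the Thy1+ populations and 3.56 and 3.88 in 6C3 and HEC (log2 difference -6.97 ± 1.57 (SE), adjusted p = 0.008). Of its 34 counts in the progenitors nearly all came from 1 BCSP library. Abcc9, a potassium channel subunit of mural cells (ENSMUSG00000030249.15, chr6:142587862-142702315, - strand), and Mnda, a nuclear antigen without a match in GENCODE vM21, had the same order (log2 differences -5.58 ± 1.27 and -5.69 ± 1.29, SE). Ednrb, an endothelin receptor (ENSMUSG00000022122.15, chr14:103814625-103844402, - strand), averaged 205 CPM in BLSP, 62.5 in PCP and at most 12.9 elsewhere (log2 difference -5.76 ± 1.44 (SE), adjusted p = 0.013), with an adjusted p of 0.0544 without BCSP.

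Red cell RNA separated the classes as well. Hba-a2, which encodes an alpha globin chain (ENSMUSG00000069917.7, chr11:32296489-32297298, + strand), lay at 0.0321 to 1.24 CPM (median 0.365) in the progenitors and 4.82 to 39.1 CPM (median 19.6) downstream (log2 difference -5.42 ± 0.5 (SE), adjusted p = 0.00016). The beta globin gene Hbb-bt (ENSMUSG00000073940.3, chr7:103812524-103813996, - strand) lay at 0 to 0.555 CPM (median 0.263) against 1.25 to 19.9 CPM (median 9.26) (log2 difference -5.27 ± 0.52 (SE), adjusted p = 0.00022). Its neighbour Hbb-bs (ENSMUSG00000052305.6, chr7:103826534-103828096, - strand) lay at 0 to 0.979 CPM (median 0.299) against 2.23 to 31.7 CPM (median 14.7) (log2 difference -5.2 ± 0.75 (SE), adjusted p = 0.00096). Reads of these near-identical copies can be split between genes by the counting, so single values are uncertain. The 7 erythroid genes together held 0.714 to 5.61 CPM in the progenitors and 17.8 to 147 CPM downstream, and 6 of the 7 were lower. Slc4a1, the red cell anion exchanger, had no count in any progenitor library and averaged 1.40 CPM downstream, at least 85.4-fold above the 3 counts that a 0 over these 6 libraries allows. All gates exclude Ter119+ cells.

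Matrix genes of fibrous tissue changed opposite to those of cartilage. Of 20, 0 rose and 14 fell, with a median of -1.8, and the summed level was 19445 to 30468 CPM in the progenitors against 110463 to 178454 CPM downstream. Col1a1, the main chain of type I collagen (ENSMUSG00000001506.10, chr11:94936224-94953042, + strand), lay at 4219 to 11177 CPM (median 6785) against 67316 to 143450.0 CPM (median 88491) (log2 difference -3.6 ± 0.46 (SE), adjusted p = 0.00056), and Col1a2 at 3022 to 4217 CPM (median 3758) against 9913 to 13936 CPM (median 11036) (log2 difference -1.59 ± 0.23 (SE), adjusted p = 0.00089). The 2 chains of the same fibre thus differed by unequal factors. Tnc, which encodes tenascin C, lay at 67.6 to 349 CPM (median 115) against 1143 to 2647 CPM (median 2000.3) (log2 difference -3.77 ± 0.4 (SE), adjusted p = 0.00026), and Eln, elastin, at 65.2 to 249.9 CPM (median 114) against 441 to 2368 CPM (median 938) (log2 difference -3.13 ± 0.48 (SE), adjusted p = 0.0012). Among the progenitors pBCSP held the most Col1a1, Tnc and Eln, at 11080.2, 231 and 182 CPM. Without BCSP 9 genes of the list fell.

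Not every fibrous gene followed. Aspn, asporin, averaged 2421, 3202 and 2212 CPM in PCP, THY and BLSP but 368 in 6C3 and 204 in HEC, the last below the pBCSP mean of 287 (log2 difference -3.12 ± 0.9 (SE), adjusted p = 0.024). Its adjusted p was 0.0895 without SSC and 0.087 without BCSP. Dcn, decorin, and Col6a1, a type VI collagen chain, did not pass (log2 difference 0.19 ± 0.29 (SE), adjusted p = 0.641 and log2 difference -0.61 ± 0.24 (SE), adjusted p = 0.076). Of 8 tendon and joint genes 1 rose (12.5%) and 3 fell (37.5%), beside 16.6% and 19.2% of all genes. The former was Egr1, also an immediate early gene. The tendon transcription factor Scx lay at 1.74 to 4.53 CPM (median 2.66) against 8.01 to 72.5 CPM (median 52.3) (log2 difference -4.05 ± 0.28 (SE), adjusted p = 8e-05), its target Tnmd at 47.99 to 146 CPM (median 61.3) against 338 to 1992 CPM (median 699) (log2 difference -3.43 ± 0.55 (SE), adjusted p = 0.0016) and Thbs4 at 27.4 to 129 CPM (median 33.6) against 265 to 1179 CPM (median 450.1) (log2 difference -3.08 ± 0.61 (SE), adjusted p = 0.0045). The joint surface genes varied within the downstream class and did not pass: Prg4, lubricin, averaged 7006 CPM in HEC and 2449 in 6C3 but 110.0 to 246 in the Thy1+ populations, against 1328 to 3139.8 in the progenitors (log2 difference 0.09 ± 1.2 (SE), adjusted p = 0.962), and Cilp averaged 2480.3 CPM in HEC (log2 difference -2.27 ± 0.92 (SE), adjusted p = 0.08).

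Osteoblast genes did not separate the classes as a group. Of 20, 2 rose and 2 fell, the median was 0.85, and the 2 that fell were Col1a1 and Col1a2. Those that rose were Pth1r and Omd, which encodes osteomodulin, at 2766 CPM in SSC, 2026 in BCSP and 311 in pBCSP against 109 to 318 downstream (log2 difference 3.05 ± 0.57 (SE), adjusted p = 0.0034). The median member stood 0.92, 0.88 and 0.76 above the progenitor mean on the log2 scale in BCSP, PCP and SSC and at -1.59 in HEC and -1.58 in pBCSP. Of the list 1 gene rose without SSC, BCSP, THY or BLSP and 4 without PCP, and the median was 0.21 without BCSP. In both fits on 16 libraries, whose error comes from the replicates alone, 13 genes rose and 4 fell. Sparc, osteonectin, lay at 21032 to 39842 CPM (median 33982) against 10319.5 to 26850.1 CPM (median 12349.5) and did not pass (log2 difference 1.04 ± 0.37 (SE), adjusted p = 0.052).

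Genes of the marrow stroma, the blood stem cell niche and fat cells were lower in the progenitors only in part. Of 16, 0 rose and 8 fell (median -1.92). Cxcl12, the chemokine that retains blood stem cells, averaged 1648 CPM in PCP, 443 in 6C3 and 111 in HEC against 25.6 to 65.8 in the progenitors (log2 difference -3.62 ± 0.93 (SE), adjusted p = 0.015), with an adjusted p of 0.0621 without SSC and 0.0561 without pBCSP. Kitl, the stem cell factor, lay at 1.34 to 6.49 CPM (median 2.07) against 13.3 to 139 CPM (median 47.1) (log2 difference -4.22 ± 0.69 (SE), adjusted p = 0.0018), and Lpl, lipoprotein lipase, at 6.73 to 18.4 CPM (median 10.3) against 18.1 to 282 CPM (median 75.9) (log2 difference -3.29 ± 0.75 (SE), adjusted p = 0.0085). Cebpb, a transcription factor of early fat cells and of inflammation, lay at 3.26 to 48.8 CPM (median 12.5) against 106 to 320.4 CPM (median 146) (log2 difference -3.2 ± 0.38 (SE), adjusted p = 0.00041). PCP held the highest mean of all 4 genes. Hlf, for which HEC is named, was lower in the progenitors as well (log2 difference -1.84). The transcription factor Ebf1 did not pass (log2 difference -0.01 ± 0.37 (SE), adjusted p = 0.993), and the osteoclast ligand Tnfsf11 did not pass (log2 difference -1.85 ± 0.7 (SE), adjusted p = 0.064). The fat cell genes Pparg, Fabp4, Cebpa and Adipoq did not pass either (log2 differences 0.68, 0.21, -0.44 and -3.38). The same held for Lepr and Il7 (log2 differences -1.17 and -0.82).

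Actin and myosin genes of contractile cells were lower too. Of 20, 0 rose and 14 fell (median -1.68), and for 12 of them all progenitor libraries lay below all downstream ones, beside 8.84% of all genes tested. Myl9, a myosin light chain, lay at 10.4 to 67.9 CPM (median 28.9) against 138 to 585 CPM (median 246) (log2 difference -3.07 ± 0.32 (SE), adjusted p = 0.00026), the kinase Mylk at 4.05 to 13.7 CPM (median 8.58) against 32.8 to 117 CPM (median 79.1) (log2 difference -3.05 ± 0.34 (SE), adjusted p = 0.00031) and Tpm2, a tropomyosin, at 7.77 to 14.7 CPM (median 13.00) against 41.2 to 176 CPM (median 90.3) (log2 difference -2.92 ± 0.32 (SE), adjusted p = 0.00031). Tagln had no count in the progenitors and only 0.335 to 1.34 CPM (median 0.574) downstream, on average at least 40.3-fold above the floor of 3 counts over the 6 libraries. The cytoplasmic Actb and the tropomyosin Tpm3 did not pass (log2 difference 0.08 ± 0.22 (SE), adjusted p = 0.803 and log2 difference -0.33 ± 0.17 (SE), adjusted p = 0.172). Smooth muscle and pericyte genes moved with this list: of 6, 4 were lower and 0 higher, and their summed level was 485 to 604 CPM in the progenitors against 644 to 2864 CPM. Among them Rgs5, a pericyte gene, lay at 1.27 to 56.04 CPM (median 17.7) against 109 to 2238 CPM (median 663) (log2 difference -4.88 ± 1.12 (SE), adjusted p = 0.0087) and Myh11, smooth muscle myosin (ENSMUSG00000018830.10, chr16:14194535-14291372, - strand), at 0 to 2.71 CPM (median 0.522) against 31.1 to 177 CPM (median 54.02) (log2 difference -6.11 ± 0.85 (SE), adjusted p = 0.00081). Their part in the actin values was not tested.

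Serum response factor binds the CArG box in promoters of this family, and windows of 4 of the 18 actin genes in RefSeq hold one (22.2%, against 1.13% of the tested genes with a window). These are Myl9 and Vcl, which were lower (log2 differences -3.07 and -1.47), and Cnn2 and Actg1, which did not pass (log2 differences -1.24 and -0.08). The former are printed here with the box in capitals, upstream of the start, and the Myl9 window ends where a GENCODE exon begins.
Myl9 (chr2:156775214-156775419, + strand): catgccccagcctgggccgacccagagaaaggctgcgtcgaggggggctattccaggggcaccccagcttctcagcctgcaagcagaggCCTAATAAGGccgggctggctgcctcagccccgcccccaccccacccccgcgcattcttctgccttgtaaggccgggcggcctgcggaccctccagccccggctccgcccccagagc
Vcl (chr14:20929148-20929397, + strand): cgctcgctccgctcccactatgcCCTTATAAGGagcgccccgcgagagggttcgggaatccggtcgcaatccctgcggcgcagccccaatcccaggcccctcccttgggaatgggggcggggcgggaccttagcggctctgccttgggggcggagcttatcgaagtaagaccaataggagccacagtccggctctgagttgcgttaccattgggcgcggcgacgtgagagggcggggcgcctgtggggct
The box lies 161 bases before the RefSeq start in Myl9 and 227 in Vcl. A match by letters alone was thus found in 2 genes that were called and in 2 that were not.

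Genes of mitosis, and some of DNA synthesis, were lower in the progenitors. Of 32, 1 rose (3.12%) and 20 fell (62.5%), beside 16.6% and 19.2% of all genes (median -1.0). Their summed level was 655 to 888 CPM against 859 to 1664 CPM. Mki67, which marks cycling cells, lay at 1.86 to 7.62 CPM (median 3.43) against 17.2 to 46.1 CPM (median 25.8) (log2 difference -2.79 ± 0.31 (SE), adjusted p = 0.00032). The spindle gene Prc1 lay at 6.52 to 14.9 CPM (median 11.7) against 28.2 to 68.1 CPM (median 47.2) (log2 difference -2.09 ± 0.26 (SE), adjusted p = 0.00047). Kif11, a spindle motor, lay at 3.03 to 10.99 CPM (median 5.39) against 13.2 to 31.3 CPM (median 22.9) (log2 difference -1.96 ± 0.34 (SE), adjusted p = 0.0022). Neither overlapped, while Hmmr overlapped (log2 difference -1.91 ± 0.38 (SE), adjusted p = 0.0043). The gene that rose was Pcna (log2 difference 0.64), a clamp of DNA replication. Mcm6, a helicase subunit, and Rrm1, a subunit of ribonucleotide reductase, did not pass (log2 difference -0.08 ± 0.17 (SE), adjusted p = 0.726 and log2 difference -0.5 ± 0.22 (SE), adjusted p = 0.097). Of the other genes of DNA synthesis, Rrm2, Mcm2, Cdc6, Mcm4 and Tyms fell (log2 differences -1.68, -1.39, -1.24, -0.82 and -0.8). Mcm3, Mcm5, Mcm7 and Cdt1 did not pass (log2 differences -0.24, -0.44, 0.02 and -0.08), nor did the cyclin genes Ccne1 and Ccne2 (log2 differences 0.2 and -0.47). Downstream, the median member stood above the progenitor mean by 1.4 in THY, 1.37 in PCP, 1.05 in BLSP, 0.99 in 6C3 and 0.31 in HEC.

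**Figure D5:**
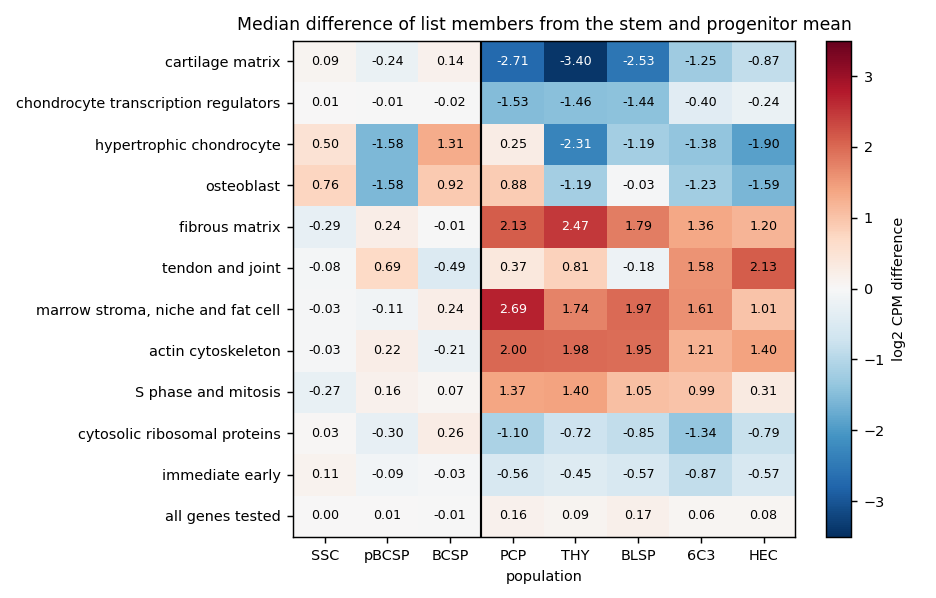
Median over the tested members of a list of the log2 CPM of each population minus the mean of SSC, pBCSP and BCSP; the vertical line separates stem and progenitor from downstream populations. The cartilage matrix list runs from -3.40 in THY to -0.87 in HEC, while the hypertrophic and osteoblast lists differ within both classes.

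Of the 31 lists, cytosolic ribosomal proteins had the largest share of higher genes (84.7%). Of 85 tested, 72 rose and 1 fell (median 1.01), and the list held 13110.1 to 23766 CPM in the progenitors against 5409 to 10223 CPM downstream. Rps27 lay at 119 to 215 CPM (median 152) against 21.6 to 64.9 CPM (median 47.8) (log2 difference 1.77 ± 0.21 (SE), adjusted p = 0.00039) and Rpl3 at 193 to 424 CPM (median 269) against 45.2 to 119.6 CPM (median 85.4) (log2 difference 1.75 ± 0.21 (SE), adjusted p = 0.00042), both without overlap, while Rpl41 and Rpl7 did not pass (log2 difference 0.39 ± 0.21 (SE), adjusted p = 0.177 and log2 difference 0.57 ± 0.23 (SE), adjusted p = 0.079). These genes are short and have many processed pseudogenes that can take their reads. They moved with the trend by exon length given above, and the part of that trend was not tested.

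Other large complexes moved less. Of 31 proteasome subunits, 13 rose and 1 fell (median 0.26), led by the core subunits Psmb2 (log2 difference 0.98 ± 0.16 (SE), adjusted p = 0.0019) and Psma5 (log2 difference 0.91 ± 0.13 (SE), adjusted p = 0.00081). The immunoproteasome subunits Psmb8 and Psmb9, counted in another list, were lower instead (log2 differences -2.23 ± 0.68 and -2.15 ± 0.63, SE). Of 79 nuclear genes of oxidative phosphorylation, 15 rose and 1 fell (median 0.1), so that the share that rose, 19.0%, was close to the 16.6% of all genes. Uqcrh, of complex III, was higher (log2 difference 1.02 ± 0.18 (SE), adjusted p = 0.0026) and Ndufb7, of complex I, lower (log2 difference -0.94 ± 0.17 (SE), adjusted p = 0.0029). Of 16 genes of the mitochondrial genome 0 rose and 4 fell (25.0%, beside 19.2% of all genes, median -0.4). Among them were mt-Rnr1 (log2 difference -1.26 ± 0.29 (SE), adjusted p = 0.0086) and mt-Nd6 (log2 difference -0.9 ± 0.22 (SE), adjusted p = 0.012). These counts depended on single populations. When 1 population or replicate was left out, 3 proteasome genes rose without replicate 2 and 4 without SSC. In the nuclear list 8 rose without SSC or replicate 2, and 7 fell without BCSP. Of the mitochondrial genome 1 fell without replicate 2, 2 without SSC or pBCSP, and 7 without 6C3. The calls of Psmb8 and Psmb9 were both lost without pBCSP or replicate 2.

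Immediate early genes, which cells switch on within minutes of a stimulus, were more often higher than lower in the progenitors. Of 21, 10 rose (47.6%) and 3 fell (14.3%), beside 16.6% and 19.2% of all genes (median 0.57). The nuclear receptor Nr4a1 lay at 2738 to 6667 CPM (median 5874) against 530.1 to 878 CPM (median 713) (log2 difference 2.94 ± 0.21 (SE), adjusted p = 8.1e-05), the AP-1 subunit Fos at 3872 to 6112 CPM (median 5009.9) against 382 to 1226 CPM (median 829) (log2 difference 2.56 ± 0.23 (SE), adjusted p = 0.00016) and the phosphatase Dusp1 at 2114 to 3361 CPM (median 2909) against 620.2 to 1230.0 CPM (median 724) (log2 difference 1.92 ± 0.19 (SE), adjusted p = 0.00021). Egr1 and Egr3, relatives that bind like sites, passed in opposite directions: Egr1 lay at 3710.2 to 5287 CPM (median 4490.0) against 1348 to 3612 CPM (median 2314) (log2 difference 0.93 ± 0.22 (SE), adjusted p = 0.01) and Egr3 at 7.74 to 10.7 CPM (median 9.53) against 50.9 to 129 CPM (median 99.3) (log2 difference -3.32 ± 0.27 (SE), adjusted p = 9.8e-05). Socs3 and Ier3 did not pass (log2 difference -0.11 ± 0.29 (SE), adjusted p = 0.804 and log2 difference -0.03 ± 0.38 (SE), adjusted p = 0.957). Without replicate 2, 6 genes rose, and Egr1 had an adjusted p of 0.0545 without SSC.

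Markers of cell types that the gates should remove were low but not absent. Of 11 endothelial genes 2 were lower and 0 higher in the progenitors, with a summed level of 13.1 to 61.9 CPM against 35.6 to 249 CPM. The share that was lower, 18.2%, was close to the 19.2% of all genes, and the median of -2.14 turned to 0.9 without PCP. In both fits on 16 libraries 2 were higher and 3 lower. Pecam1 averaged 47.7 CPM in PCP, 10.7 in BCSP and at most 2.76 elsewhere (log2 difference -1.12 ± 1.31 (SE), adjusted p = 0.536). Tek, the Tie2 gene, averaged 7.37, 6.45 and 2.69 CPM in PCP, THY and BLSP and at most 0.64 in the others (log2 difference -3.07 ± 1.75 (SE), adjusted p = 0.198). Of 16 blood cell genes 3 were lower and 1 higher (17.5 to 27.9 CPM against 15.95 to 38.2 CPM in sum), and the 18.8% that were lower were close to the share of all genes. None was lower without replicate 2, and 1 was without SSC, pBCSP, BCSP or PCP. Of 5 osteoclast genes 3 were lower (96.95 to 142 CPM against 113 to 641 CPM), and 1 was lower without SSC, pBCSP or replicate 2. Among them Mmp9 averaged 178 CPM in PCP (log2 difference -3.98 ± 1.66 (SE), adjusted p = 0.087), and Ctsk overlapped (log2 difference -1.13 ± 0.33 (SE), adjusted p = 0.025), losing its call without SSC, pBCSP, BCSP or replicate 2 (adjusted p 0.0573 to 0.095).

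Skeletal muscle markers split within their list. Of 8 muscle genes 2 were higher and 4 lower (31.3 to 62.9 CPM against 25.5 to 58.5 CPM). Tnnt3, a fast muscle troponin, lay at 20.6 to 50.3 CPM (median 30.2) against 3.42 to 7.89 CPM (median 4.72) (log2 difference 2.79 ± 0.25 (SE), adjusted p = 0.00015), whereas the myogenic factor Myod1 was lower (log2 difference -4.23 ± 1.03 (SE), adjusted p = 0.012) and did not pass 1.84 CPM in any library. Its adjusted p was 0.0983 without replicate 1, when 1 muscle gene fell, and 2 fell without any one of SSC, pBCSP, BCSP, PCP, THY or BLSP. Of 4 Schwann genes 1 was higher, S100b, a calcium-binding protein that chondrocytes also make (79.2 to 143 CPM (median 105) against 10.5 to 48.6 CPM (median 14.8), log2 difference 2.3 ± 0.45 (SE), adjusted p = 0.004). Without BLSP, and without PCP, all 24 leading genes kept their direction and call. They were chosen for lack of overlap over all 16 libraries, so this does not test for RNA of such cells. The part of cells of these types in the values given here, those of the leading genes included, was not tested.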

How the data were processed

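Gene counts of 16 libraries were analysed. Per the study's methods, cells were sorted into TRIzol, libraries were made by a Smart-seq2-based protocol and sequenced paired-end. The authors trimmed reads with fastp 0.20.1, aligned them with HISAT2 2.2.1 to GRCm38 and counted them per gene with featureCounts 2.0.1. The table that the authors deposited holds raw read counts per gene, and the annotation and strand setting are not given in the sources used here. Total counts include PCR copies of molecules. Of 46959 entries, 128 named 1-Mar or 2-Mar were left out, which left 46831 genes, of which 44687 have 1 match in GENCODE vM21. A pair of further deposited tables hold the authors' own fold changes and p-values for Mettl3-deleted cells and were not used.

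Libraries of a population were summed, giving 8 units. Classes were compared with the quasi-likelihood F test of edgeR (4.0.16, in R 4.3.3), with TMM factors, filterByExpr by class and Benjamini-Hochberg adjustment over 19540 genes. Standard errors are the absolute log2 difference divided by the square root of F. p-values therefore measure the spread between populations of a class. The study gives the 2 libraries of a population as independent experiments. CPM were scaled by TMM, with a prior count of 2 on the log2 scale. The fit was tested on simulated counts.

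The members and the 31 gene lists were chosen with earlier results of these data known. Genes named with values are the 12 largest differences in each direction among called genes without overlap of the 6 and 10 libraries, with a mean CPM of at least 5 and no predicted-gene symbol; Epyc, Ucma, Chst11 and Id2; the genes of the sort antigens; and per list up to 4 called genes with the largest difference and up to 2 not called with the highest mean CPM. A few genes that this rule names are not reported here. List members outside this rule are named with their log2 difference only and were chosen after their values were seen. Promoter sequences are from RefSeq (GRCm38.p6). Alternatives were DESeq2 1.42.0, its size factors, library size alone, other filters, fits on 16 libraries (with limma 3.58.1 for 1 of them), omission of replicates or populations, and the study's threshold. Figures were drawn with matplotlib 3.10.9.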

Additional observations from a re-analysis of the deposited data

Results flagged for a closer look

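For the 24 leading genes, the 4 markers and 3 library values, the highest and lowest library of each class were compared with the rest of that class by the gap to the nearest library over the range (Dixon's ratio). Of 60 groups 8 passed the 95% critical value. A rate of about 1 in 20 by chance assumes independent values of 1 normal distribution. Replicate libraries of different populations are not such values, so the 8 cannot be set against that rate. In stem and progenitor libraries these were BCSP replicate 1 for Sele, at 1.03 CPM beside 0 to 0.0653 in the other 5, and the same library for Abcc9, at 1.19 CPM beside 0.0310 to 0.269.

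Downstream, PCP replicate 1 stood apart for Timp4 (7.85 CPM beside 0.0915 to 3.45) and for A2m (7.04 CPM beside 0 to 1.86), and PCP replicate 2 for Adamts4 (498 CPM beside 66.8 to 198). HEC replicate 1 stood apart for Fxyd2 (3.87 CPM beside 1.13 to 2.52), Myh11 (177 CPM beside 31.1 to 79.9) and Id2 (156 CPM beside 63.5 to 107).

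The left-out entries named 1-Mar and 2-Mar lie outside the main measurement. They held 0.300% of the counts in the median downstream library and 0.0408% in the median stem and progenitor library. The genes behind these entries were not analysed here.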

How the results depend on the processing

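Of 19 alternatives, most left the number of higher and lower genes within 1.5 times of 3249 and 3751. The fit on 16 libraries with 1 mean per population gave 4640 higher and 5657 lower genes, and the same fit with the replicate block 4542 and 5648; their error comes from the replicates alone. Replicate numbers did not pair the samples: over 28 pairs of populations the difference of replicate 1 and 2 correlated at -0.193 to 0.130, with a median of 0.0063, and 4 pairs were over 0.1. Leaving out a replicate or a population gave 1842 to 3189 higher and 2328 to 3741 lower genes. The lowest values came without replicate 2 (1842 and 2328), while without replicate 1 they were 2815 and 3409. Without SSC 2140 genes were higher. The cause of these differences was not tested. DESeq2 gave 3648 and 4675, library size alone 2412 and 4106, and the study's threshold 3715 and 4643. Library size alone moved the median difference of all genes from -0.08 to -0.21, and no filter to -0.61.

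Of the 24 leading genes and the markers, all but Ednrb kept direction and call under 18 alternatives; Ednrb had an adjusted p of 0.0546 with limma voom and 0.0544 without BCSP. Of 187 named genes 127 were called, and only these could lose a call. Without SSC 25 of them did, without pBCSP 19 and without BCSP 17. Without replicate 2 the number was 17 and without replicate 1 it was 10. Genes that did not pass did so with the other sign in 3 cases: the endothelial gene Egfl7 was 1.01 in both 16-library fits (-0.62 over the 8 sums) and Ckm, muscle creatine kinase, -4.02 without replicate 2 (0.02 over the 8 sums and 1.1 without replicate 1). The number of cartilage matrix genes that rose was 13 to 24 and of fibrous matrix genes that fell 9 to 17, and neither list had a call in the other direction under any alternative. For actin genes 13 to 16 fell, for S phase and mitosis 14 to 24, and 52 to 78 ribosomal protein genes rose. The medians of the Id and BMP (-0.07 to 0.22), Wnt (-0.21 to 0.25), glycolysis (-0.04 to 0.58), Hox (-0.20 to 0.17), nuclear oxidative phosphorylation (-0.06 to 0.20), blood (-2.08 to 0.32), endothelial (-2.82 to 0.9) and skeletal muscle (-2.2 to 0.15) lists changed sign. Genes under about 1 CPM in a class rest on few counts.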

Other observations

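Genes of sugar use and hypoxia were mixed. Of 24, 6 rose (25.0%) and 1 fell (4.17%), beside 16.6% and 19.2% of all genes (median 0.34). Slc2a1, the glucose transporter GLUT1, lay at 213 to 361 CPM (median 275) in stem and progenitor libraries and 35.04 to 133 CPM (median 52.9) downstream (log2 difference 2.07 ± 0.36 (SE), adjusted p = 0.0024). Bnip3, a mitochondrial protein induced by hypoxia, lay at 256 to 476 CPM (median 333) against 66.7 to 213 CPM (median 126) (log2 difference 1.43 ± 0.29 (SE), adjusted p = 0.0046), and Ankrd37, another hypoxia target, at 3.01 to 6.31 CPM (median 3.58) against 0.627 to 1.58 CPM (median 1.08) (log2 difference 1.89 ± 0.27 (SE), adjusted p = 0.00085). Vegfa, a further target, was lower (log2 difference -1.0). The enzymes Eno1 and Pkm did not pass (log2 difference 0.3 ± 0.26 (SE), adjusted p = 0.403 and log2 difference 0.1 ± 0.23 (SE), adjusted p = 0.761). Without HEC 10 genes rose.

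In the endoplasmic reticulum list 5 of 23 genes rose (21.7%) and 2 fell (8.7%), beside 16.6% and 19.2% of all genes. The cochaperone Dnajb9 lay at 235 to 379.7 CPM (median 307) against 39.5 to 91.5 CPM (median 70.8) (log2 difference 2.16 ± 0.18 (SE), adjusted p = 0.00011) and the stress factor Atf4 at 355 to 527 CPM (median 431) against 99.4 to 199 CPM (median 137) (log2 difference 1.68 ± 0.19 (SE), adjusted p = 0.00035). Plod2, a collagen lysyl hydroxylase, was also higher (log2 difference 0.98 ± 0.18 (SE), adjusted p = 0.0032), while Creb3l1, which drives collagen secretion in osteoblasts, lay at 18.00 to 40.2 CPM (median 28.1) against 73.6 to 201 CPM (median 91.1) (log2 difference -1.95 ± 0.28 (SE), adjusted p = 0.00093). Serpinh1, the collagen chaperone, did not pass (log2 difference -0.61 ± 0.23 (SE), adjusted p = 0.065). In the interferon list 1 of 17 genes rose (5.88%) and 7 fell (41.2%), with Isg15 at 0.217 to 0.996 CPM (median 0.537) against 1.63 to 8.01 CPM (median 4.76) (log2 difference -3.0 ± 0.48 (SE), adjusted p = 0.0016). B2m and H2-K1 did not pass (log2 difference 0.24 ± 0.27 (SE), adjusted p = 0.503 and log2 difference -0.41 ± 0.17 (SE), adjusted p = 0.084). The genes of the endoplasmic reticulum list that rose numbered 3 without replicate 2 or any one of SSC, pBCSP, PCP, THY or BLSP. The interferon genes that fell numbered 3 without replicate 2 and 4 without pBCSP or BCSP.

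Of 35 Hox genes, which set position along the body, 3 rose and 1 fell. These shares, 8.57% and 2.86%, lay below the 16.6% and 19.2% of all genes. The 3 that rose are neighbours in the C cluster, whose members Hoxc4, Hoxc5, Hoxc6, Hoxc8, Hoxc12 and Hoxc13 did not pass. Hoxc9 lay at 9.49 to 17.3 CPM (median 13.7) against 1.03 to 2.88 CPM (median 2.0) (log2 difference 2.71 ± 0.2 (SE), adjusted p = 8.5e-05), Hoxc10 at 13.9 to 33.7 CPM (median 19.8) against 2.81 to 12.4 CPM (median 5.59) (log2 difference 1.74 ± 0.38 (SE), adjusted p = 0.0067) and Hoxc11 at 0.835 to 2.09 CPM (median 1.24) against 0.079 to 0.79 CPM (median 0.652) (log2 difference 1.25 ± 0.39 (SE), adjusted p = 0.034, 0.0709 with library size alone and 0.0504 to 0.377 without replicate 2 or any one population other than PCP and 6C3). Hoxa10 and Hoxa9, the most abundant that did not pass, had 0.4 ± 0.41 and 0.09 ± 0.32 (SE). Cd79a, a B-cell receptor gene, lay at 1.86 to 4.404 CPM (median 2.31) in the progenitors against 0.137 to 0.809 CPM (median 0.283), the reverse of Mpo, a granulocyte gene (log2 differences 2.99 ± 0.48 and -3.99 ± 1.32, SE). Mpo lost its call without either replicate or any one population other than BLSP and 6C3 (adjusted p 0.0533 to 0.123).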
